A study of Homo sapiens and Mus musculus with 30 samples.

Results

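Messenger RNAs differ in how much of their pool is carried by ribosomes, and the comparison of polysome RNA with total RNA from the same cell line shows which transcripts are well or poorly loaded. NIH3T3 is a mouse embryonic fibroblast line. Its cells were prepared at 5 levels, named X0 to X4 in order of rising LIN28B, a protein that binds RNA and keeps let-7 microRNAs from maturing. Each level gave 1 polysome library and 1 total RNA library, so 10 of the 30 libraries of the series enter here. Culture was in DMEM containing 10% FBS, doxycycline at 10 ng/ml induced the LIN28B transgene, and RNA was taken up in Trizol and made into libraries with an Illumina polyA kit. The series text calls X0 a knockout, while the mouse titles name no knockout, and no source used here says whether the levels are clones. The series text also speaks of 2 replicates, whereas the table has 1 column per level and fraction.

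The genes compared were those with a mean of at least 1 RPKM (reads per kilobase of gene, scaled to the size of the library) over the 10 libraries. This kept 10952 of 41128 rows, with means of 1.0004 and 0.999999 RPKM just inside and just outside the filter. Loading is given throughout as the difference, polysome minus total RNA at the same level, in log2(RPKM + 0.5), averaged over the 5 levels with its SD. On this scale a value of 1 is a doubling, and low genes are understated. The 5 levels served as the replicate pairs although they differ in LIN28B, so that the p-values measure only the spread between these libraries. The polysome libraries held 15929653 to 20818902 reads in genes and the total RNA libraries 16071673 to 25002825. The fibroblast label was borne out by 11 of 12 fibroblast markers at 1 RPKM or more in every total RNA library, against 0 of 7 epithelial, 0 of 6 endothelial, 0 of 9 neuron and muscle and 1 of 8 blood cell markers.

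Several families are known for unusual translation, and they are the ones followed here. TOP messages, which start with a run of pyrimidines and encode ribosomal proteins and translation factors, shift between polysomes and a stored pool with growth signals. Mitochondrially encoded messages are translated by the organelle's own ribosomes. Ferritin messages carry an iron-responsive element that can block initiation, stress genes such as Atf4 carry upstream reading frames, and many small nucleolar RNA host genes are spliced, polyadenylated RNAs with little coding capacity. Fewer ribosomes per message and fewer messages with any ribosome cannot be told apart in these data, nor can ribosomes be told from other heavy particles.

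Polysome RNA and total RNA differed for most genes. At an adjusted p under 0.05 by limma, 7853 genes (71.7% of those tested) were higher in polysome RNA and 1495 (13.7%) were lower. The median gene stood at 0.62. Loading kept 1 sign at all 5 levels in 9128 genes (83.3%), 7721 of them higher and 1407 lower. The distribution was lopsided: the highest gene stood at 2.85 and the lowest at −5.70. A group of 2517 genes (23.0%) passed the test at 1 or more, called well loaded here, and 948 (8.66%) passed it at −1 or less, called poorly loaded. At every one of the 5 levels, 780 genes (7.12%) stood at 1 or more and 749 (6.84%) at −1 or less.

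The zero of this scale is set by the scaling of each library to its own total, so it has no meaning of its own. The read totals showed what was redistributed. Cytosolic ribosomal protein genes took 18.7% ± 0.81 of the reads in total RNA (SD, n = 5) and 4.04% ± 0.31 in polysome RNA. Other TOP messages took 7.16% ± 0.77 and 1.81% ± 0.062, and mitochondrial genes 1.95% ± 0.30 and 0.121% ± 0.043. Genes with Gm, Rik, pseudogene or clone-based symbols took 14.3% ± 0.47 and 6.26% ± 0.20. In each of these 4 classes the total RNA share was higher at 5 of 5 levels, for which an exact sign-flip permutation test gives a two-sided p of 0.0625, the smallest that 5 pairs allow. All other genes together held 57.9% ± 1.52 of the reads in total RNA and 87.8% ± 0.52 in polysome RNA, a log2 ratio of 0.60 (0.54 to 0.65 over the levels), beside the median loading of 0.62.

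**Figure D1:**
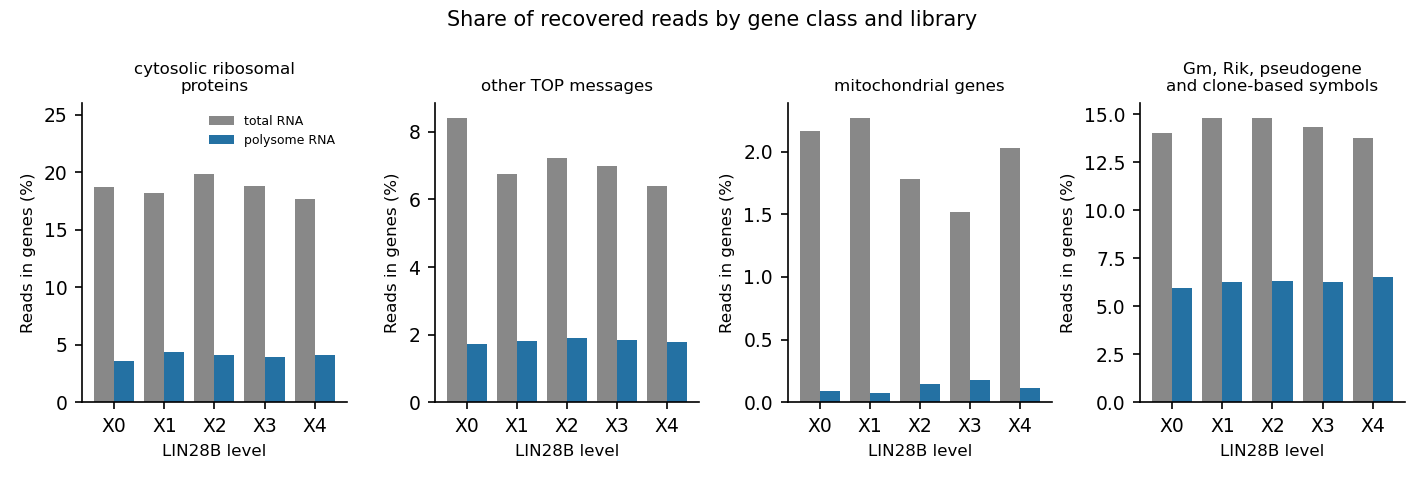
Share of recovered reads in genes (percent, axes from 0) taken by 4 gene classes in each library, with grey bars for total RNA and blue bars for polysome RNA at levels X0 to X4. In every class and at every level the polysome bar is the lower one. For ribosomal proteins the total RNA bars lie between 17.7% and 19.9% and the polysome bars between 3.58% and 4.41%.

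When each level was centred on its own median gene, 3250 genes (29.7%) were higher and 3374 (30.8%) lower, so that the share of calls on the higher side moved from 84.0% to 49.1%. Results are therefore given on both scales where they differ: loading as measured, and loading relative to the median gene, which is lower by about 0.61. Centring lowered every gene, so the 948 poorly loaded genes could only stay at −1 or less on the relative scale. Of the 2517 well loaded genes, 418 stayed at 1 or more. Levels were alike, with Pearson correlations over genes of 0.83 to 0.96 between the loading of any 2 levels (a description, since levels share cell line and preparation). X2 and X3 stood apart in spread: 3366 and 3058 genes were at 1 or more there, against 2090 to 2290 at the other levels. The number at −1 or less ran from 898 to 1055. Without X2 and X3, 2022 genes were well loaded and 957 poorly loaded.

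**Figure D2:**
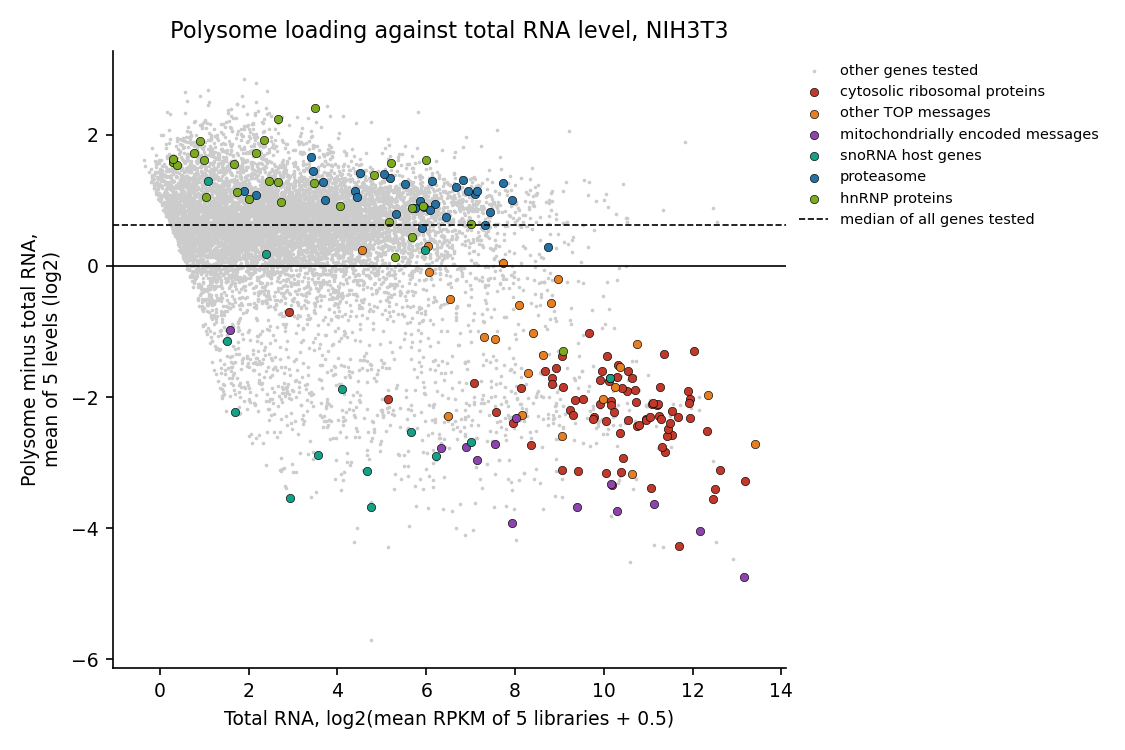
Each grey point is 1 of 10952 genes, placed by the log2 of mean total RNA RPKM plus 0.5 (horizontal) and by mean loading over the 5 levels (vertical, log2), with 6 gene lists coloured. The solid line is 0 and the dashed line the median gene at 0.62. Ribosomal proteins lie low and to the right, mitochondrial messages lower still, and proteasome and hnRNP genes lie mostly above the dashed line. The slanted lower left edge comes from the filter on mean RPKM.

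Cytosolic ribosomal protein messages were the largest coherent block at the poorly loaded end. All 79 were lower in polysome RNA and 78 were poorly loaded, with a median of −2.19 beside 0.62 over all genes, and 77 stood at −1 or less at every level. The list's median ran from −2.37 at X0 to −2.02 at X1. Small subunit genes had a median of −2.33 (32 genes, the lowest at −3.56) and large subunit genes −2.10 (47 genes, the lowest at −4.27). The SD between the members was 0.61, against a median SD of 0.16 over the levels within a member.

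Rpl41, which encodes the smallest protein of the large subunit, was the lowest. Its total RNA levels were 2927, 3397, 3634, 3517 and 3144 RPKM at X0 to X4, and its polysome levels 194, 159, 166, 162 and 180 RPKM. The fractions lay an order of magnitude apart with no overlap, a loading of −4.27 ± 0.24 (SD, n = 5, limma adjusted p = 8.0e-09), or 19.2-fold lower. Rps12 stood at −3.56 ± 0.14, Rps27 at −3.39 ± 0.18, Rps29 at −3.39 ± 0.094, Rps28 at −3.34 ± 0.11 and Rplp1, an acidic stalk protein, at −3.28 ± 0.13. Rpl39 (−3.16 ± 0.089) and Rpl12 (−3.15 ± 0.13) completed the low end. Toward the other end of the list, Rpl27 stood at −1.02 ± 0.13. Across the 79 genes loading went with total RNA RPKM at a Spearman rho of −0.38 and with gene length at 0.29, both given as descriptions over genes that are not independent.

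Ribosomal protein genes can have near-identical processed copies, and counting may then divide reads between gene and copy. Among genes tested, 240 rows with a -ps symbol could be set beside the gene they are named after. Copies of ribosomal protein genes (170 rows for 53 genes) had a median loading of −2.13, with −2.19 for their genes, and the other copies (70 rows for 51 genes) 0.69 with 0.83. The median gap between copy and gene was 0.12, and 217 of 240 lay within 0.5. Thus Hmgb1, a chromatin protein, stood at 2.19 ± 0.49 and its copy Hmgb1-ps6 at 2.49 ± 0.64. Whether copies and genes share reads was not tested, so levels of a ribosomal protein gene and of its copies are uncertain. Gm, Rik, pseudogene or clone-based rows made up 569 (76.0%) of the 749 rows at −1 or less at every level, and whether the Gm, Rik and clone-based rows share reads with other genes was not tested.

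**Figure D3:**
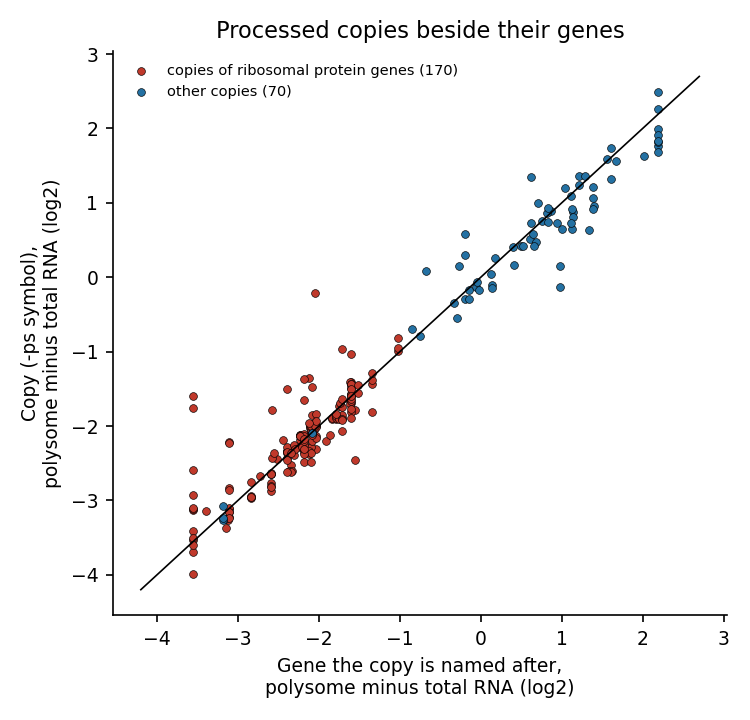
Each point is 1 of 240 rows with a -ps symbol, placed by the loading of the gene it is named after (horizontal, log2) and by its own loading (vertical, log2), with the line of equality. Copies of ribosomal protein genes (red) gather around −2 and other copies (blue) mostly above 0, and both follow the line. The Spearman rho over the points is 0.94, with several copies sharing a gene.

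The same held for most other TOP messages. Of 23, 19 were lower and 15 poorly loaded, with a median of −1.19, and 0 were higher. Eef1a1, the elongation factor that brings aminoacyl-tRNA to the ribosome, was read at 9793 to 12183 RPKM in total RNA and 1319 to 1934 RPKM in polysome RNA. That is a loading of −2.72 ± 0.28. Eef2, the translocase, stood at −1.97 ± 0.17. Tpt1, the translationally controlled tumour protein, was the lowest of the list at −3.18 ± 0.20, or 9.06-fold lower. Pabpc1, the poly(A)-binding protein, had a loading of −2.28 ± 0.64, from −3.18 at X0 to −1.63 at X3. Vim, the intermediate filament vimentin, stood at −1.19 ± 0.19.

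The other 4 of that list did not pass the test, among them its highest members, Npm1 and Nap1l1, whose values depended on X0. Npm1, a nucleolar chaperone, stood at 0.30 ± 0.90 and Nap1l1, a histone chaperone, at 0.25 ± 0.81, neither past the test. At X0 both were lower in polysome RNA (−1.19 and −1.03), and at X1 to X4 both were higher (0.19 to 1.06 for Npm1 and 0.05 to 1.08 for Nap1l1). Total RNA of Npm1 was 126 RPKM at X0 and 44.4 to 54.5 RPKM at the other levels. Without X0 both passed the test (0.67, limma adjusted p = 0.0038, and 0.57, adjusted p = 0.014). Relative to the median gene their means were below 0, at −0.31 and −0.36.

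Genes named like ribosomal proteins without being core subunits divided. These were chosen after their values were seen. Rps27l and Rpl22l1 stood at −1.61 ± 0.43 and −1.52 ± 0.42, and Rpl7l1 at 1.07 ± 0.11. Lgals1, a short and abundant message for galectin, was read at 4975 to 6942 RPKM in total RNA and 8249 to 10928 RPKM in polysome RNA, a loading of 0.67 ± 0.15 and of 0.06 relative to the median gene, where it did not pass the test (adjusted p = 0.64).

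Mitochondrially encoded messages were the lowest list. All 13 were lower in polysome RNA and 12 poorly loaded, with a median of −3.32. mt-Co3, a cytochrome oxidase subunit, was read at 8240, 10676, 9074, 7370 and 10520 RPKM in total RNA and at 281, 216, 425, 509 and 349 RPKM in polysome RNA. It stood at −4.74 ± 0.66 (limma adjusted p = 2.0e-07). mt-Co1 stood at −4.05 ± 0.74. Levels differed more here than in any other list with a median below 0: the list's median was −4.25 and −4.75 at X0 and X1, −2.40 and −1.83 at X2 and X3, and −3.22 at X4. The short mt-Atp8, which overlaps mt-Atp6, ran from −5.12 at X1 to −0.35 at X3.

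mt-Nd6, the one message of the list on the other strand of the mitochondrial genome, was the least certain. It stood at −0.97 ± 1.09 from as few as 4 reads in a polysome library, and lost its call without X1 (−0.53, adjusted p = 0.052) or without X4 (−0.93, adjusted p = 0.072). No source used here says whether reads were counted by strand, so its reads cannot be told from those of its antisense neighbours. A clone-based row, RP23-8J15.4, had nearly the values of mt-Co3 (−4.73 ± 0.66) and may hold the same reads. The lowest row of all was mt-Tt, a mitochondrial tRNA gene, with 29 to 44 reads in each total RNA library and 0 in each polysome library, at least 51.6-fold lower against a floor of 3 reads over the polysome libraries. That floor covers counting error only.

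**Figure D4:**
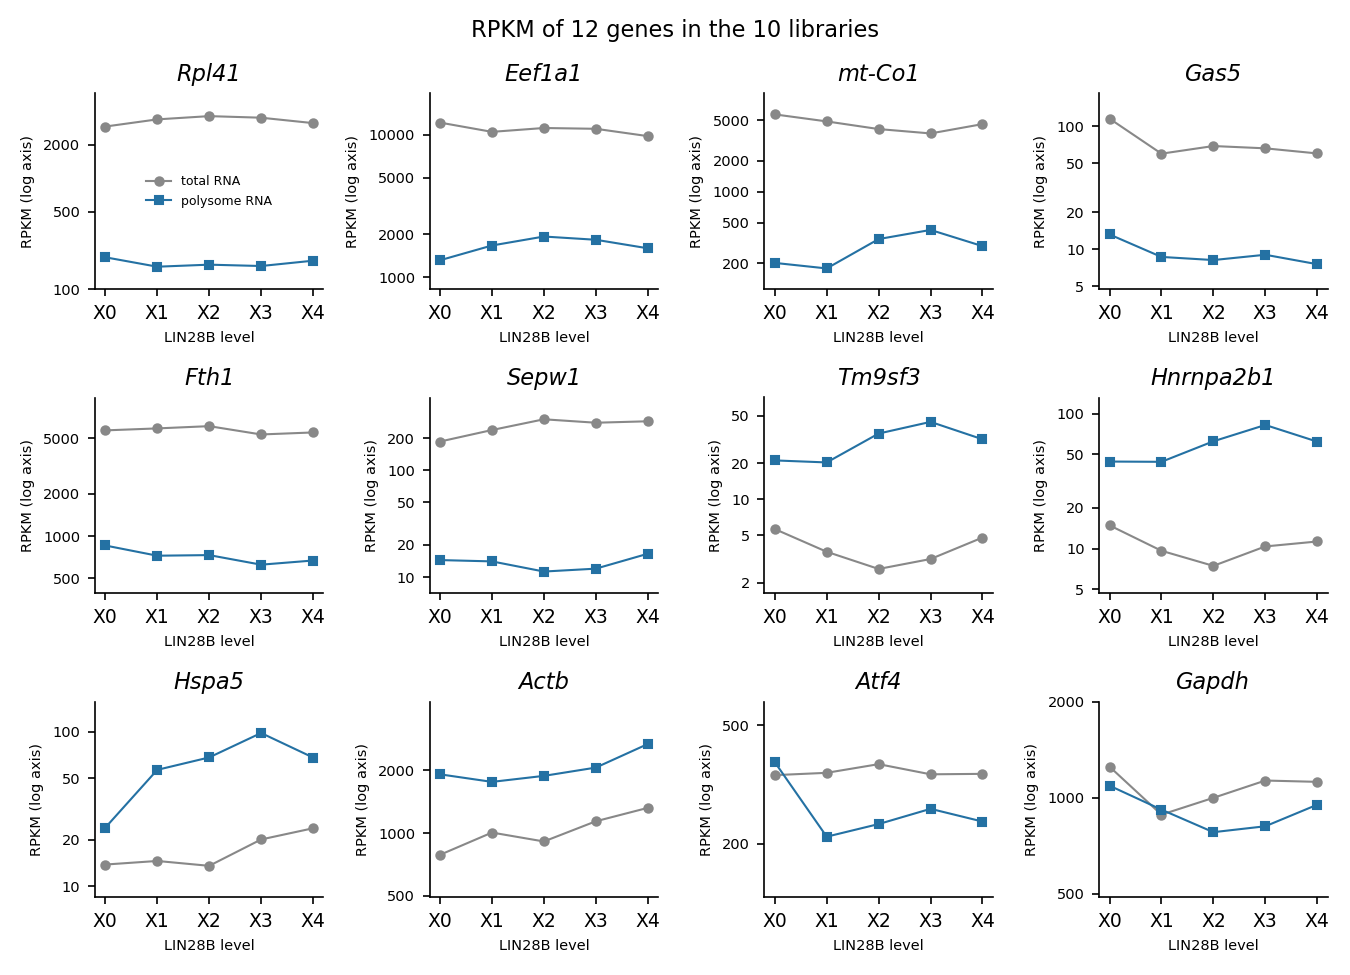
RPKM (log axis, its own range in each panel) of 12 genes at levels X0 to X4, with grey circles for total RNA and blue squares for polysome RNA, 1 library per point. In Rpl41, Eef1a1, mt-Co1, Gas5, Fth1 and Sepw1 all polysome points lie below all total RNA points. In Tm9sf3, Hnrnpa2b1 and Actb they lie above, and in Hspa5 the polysome point is the higher one at every level. In Atf4 and Gapdh the fractions cross.

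Noncoding RNAs were mostly low, with exceptions. Of 14 small nucleolar RNA host genes measured of 28 listed, 11 were lower and each of these was poorly loaded, with a median of −2.38. Gas5 was read at 59.6 to 115 RPKM in total RNA and 7.55 to 13.2 RPKM in polysome RNA, and stood at −2.90 ± 0.15. Snhg1 stood at −2.53 ± 0.21 and Snhg6 at −3.68 ± 0.55. Snhg9 was read at 2.62 to 11.0 RPKM in total RNA and had 0 reads in 3 of 5 polysome libraries. The list also holds coding hosts, among them 1 ribosomal protein gene. Its highest member was Mir22hg, the host of a microRNA, at 1.29 ± 0.46, the only member higher in polysome RNA.

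Nuclear long noncoding RNAs were measured in 6 of 18 cases, of which 4 were lower and 1 higher (median −1.11). Rian stood at −2.19 ± 0.36 and Pvt1 at −1.34 ± 0.33. Neat1, the scaffold of paraspeckles, was read at 3.93 to 7.47 RPKM in total RNA and 1.67 to 2.92 RPKM in polysome RNA, a loading of −1.23 ± 0.47. Tug1 went the other way at 1.44 ± 0.68, with 1.75 to 2.58 RPKM in total RNA and 4.36 to 10.5 RPKM in polysome RNA, fractions that did not overlap. Its symbol is protein-coding in the human annotation, so it is counted with the coding genes below. Among the 40 genes whose symbol is noncoding in the human annotation, 28 were lower and 7 higher.

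Ferritin was poorly loaded at every level. Fth1, the heavy chain, was read at 5303 to 6077 RPKM in total RNA and 626 to 858 RPKM in polysome RNA, a loading of −2.98 ± 0.15 or 7.89-fold lower (limma adjusted p = 1.3e-08). Ftl1, the light chain, stood at −2.77 ± 0.19. Of the 10 iron-responsive messages listed, 4 passed the filter, and these 2 were the only ones poorly loaded.

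Selenoproteins as a group lay with all genes, apart from 3 poorly loaded members. Their recoding of a stop codon as selenocysteine depends on a hairpin in the 3' region. Of 18 measured, 13 were higher and 3 lower, with a median of 0.63 (4 higher and 5 lower on the relative scale), and the 3 stood at −1 or less at every level. Sepw1, selenoprotein W, stood at −4.19 ± 0.41, with 186 to 300 RPKM in total RNA and 11.3 to 16.5 RPKM in polysome RNA. Among human coding symbols with a mean of at least 5 RPKM, which leave out mitochondrial messages, only Rpl41 was lower. Gpx1, the cytosolic glutathione peroxidase, stood at −2.10 ± 0.36. Selt (1.52 ± 0.66) and Vimp (1.38 ± 0.21) were the highest.

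Some families that were mostly higher in polysome RNA held single poorly loaded members. In the actin cytoskeleton list (41 measured, 32 higher, 6 lower, median 0.82, and 20 higher and 12 lower on the relative scale), the actin-sequestering thymosins Tmsb4x and Tmsb10 stood at −2.14 ± 0.63 and −1.86 ± 0.59, whereas Actr2, a core subunit of the Arp2/3 complex, stood at 2.17 ± 0.55. Actb, cytoplasmic actin, was read at 787 to 1322 RPKM in total RNA and 1762 to 2677 RPKM in polysome RNA, and was higher in polysome RNA at 5 of 5 levels. Among nuclear-encoded respiratory chain genes (76 measured, 58 higher, 13 lower, median 0.62, and 29 higher and 24 lower on the relative scale), Cox7a2l stood at −2.09 ± 0.14 and Atp5e at −1.43 ± 0.15, with Uqcrb at 1.39 ± 0.24. Of 76 mitochondrial ribosomal proteins, 62 were higher, 4 lower (31 higher and 16 lower on the relative scale) and 1, Mrpl30, poorly loaded (−1.28 ± 0.098). Among poorly loaded genes in no list were Tma7 (−2.09 ± 0.45), Tomm7 of the outer mitochondrial membrane translocase (−1.56 ± 0.32), Timm8b (−1.45 ± 0.41) and Ost4 of the oligosaccharyltransferase (−1.37 ± 0.37). These 4 were chosen after their values were seen.

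Poor loading was uncommon among other coding genes. Of 8484 genes whose symbol is protein-coding in the human annotation, 163 (1.92%) were poorly loaded and 2162 (25.5%) well loaded. As measured, 6842 of the 8484 were higher in polysome RNA, and their median was 0.69. Of the 163, 92 were ribosomal proteins or other TOP messages and 58 were in no list. With both of those lists left out, loading by gene length was highest for genes of 1000 to 1999 bases (median 0.79, 1239 genes) and 2000 to 3999 bases (0.77, 3174 genes). It was 0.41 in the 24 genes under 500 bases, 0.60 at 500 to 999 bases and 0.53 at 8000 bases or more. The poorly loaded share was 12.5% (3 genes) in the shortest class, 2.79% (7 genes) in the next and 0 of 741 in the longest. By expression, the poorly loaded share was 0.142% at 1 to under 5 RPKM and 6.67% (4 of 60 genes) at 500 RPKM or more, while the median stayed between 0.67 and 0.80. Lengths are those implied by the RPKM values, and longer genes are read at more precision.

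The best loaded coding genes formed a mixed group of low to middling expression, and each stood higher at X2 and X3 than at the other levels. Tm9sf3, a membrane protein of the Golgi, was read at 5.62, 3.62, 2.60, 3.15 and 4.77 RPKM in total RNA and 21.1, 20.3, 35.4, 44.3 and 31.7 RPKM in polysome RNA. The fractions did not overlap, and its loading was 2.78 ± 0.78 (limma adjusted p = 1.0e-05), or 6.88-fold higher. The small GTPase Rap1a stood at 2.68 ± 0.88, Serinc1 at 2.66 ± 0.58, the centrin Cetn3 at 2.60 ± 0.70 and Idi1, an enzyme of isoprenoid synthesis, at 2.50 ± 0.72. They were followed by Vbp1 of the prefoldin chaperone (2.45 ± 0.84), Rab18 (2.44 ± 0.81), the septin Sept7 (2.43 ± 0.87), the G protein subunit Gnai3 (2.41 ± 0.67) and Hnrnpa2b1 (2.41 ± 0.60). All 10 stayed past the test relative to the median gene, at 1.79 to 2.17. Outside coding symbols the highest were Gm13502 (2.85 ± 0.89) and Xlr (2.66 ± 0.89).

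Among gene lists, RNA-binding hnRNP proteins had the highest median. Of 29, 27 were higher and 20 well loaded, with a median of 1.30, and relative to the median gene 23 were higher and 2 lower. Hnrnpa2b1 was read at 7.43 to 14.9 RPKM in total RNA and 44.1 to 82.8 RPKM in polysome RNA. Hnrnpa3 stood at 2.24 ± 0.64. The only member lower in polysome RNA was Pcbp2, a poly(C)-binding protein, at −1.30 ± 0.072. It was read at 518 to 559 RPKM in total RNA and 197 to 232 RPKM in polysome RNA. Hnrnpa1, counted with the TOP messages and so not in this list, stood at 0.04 and did not pass the test. SR splicing proteins and CLK kinases, which phosphorylate them, were higher in 21 of 25 cases (median 0.95, 13 higher and 4 lower on the relative scale), led by Srsf1 at 2.21 ± 0.68 and Tra2b at 1.60 ± 0.41. Both lists varied by level, the hnRNP median from 0.99 at X1 to 1.70 at X2.

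**Figure D5:**
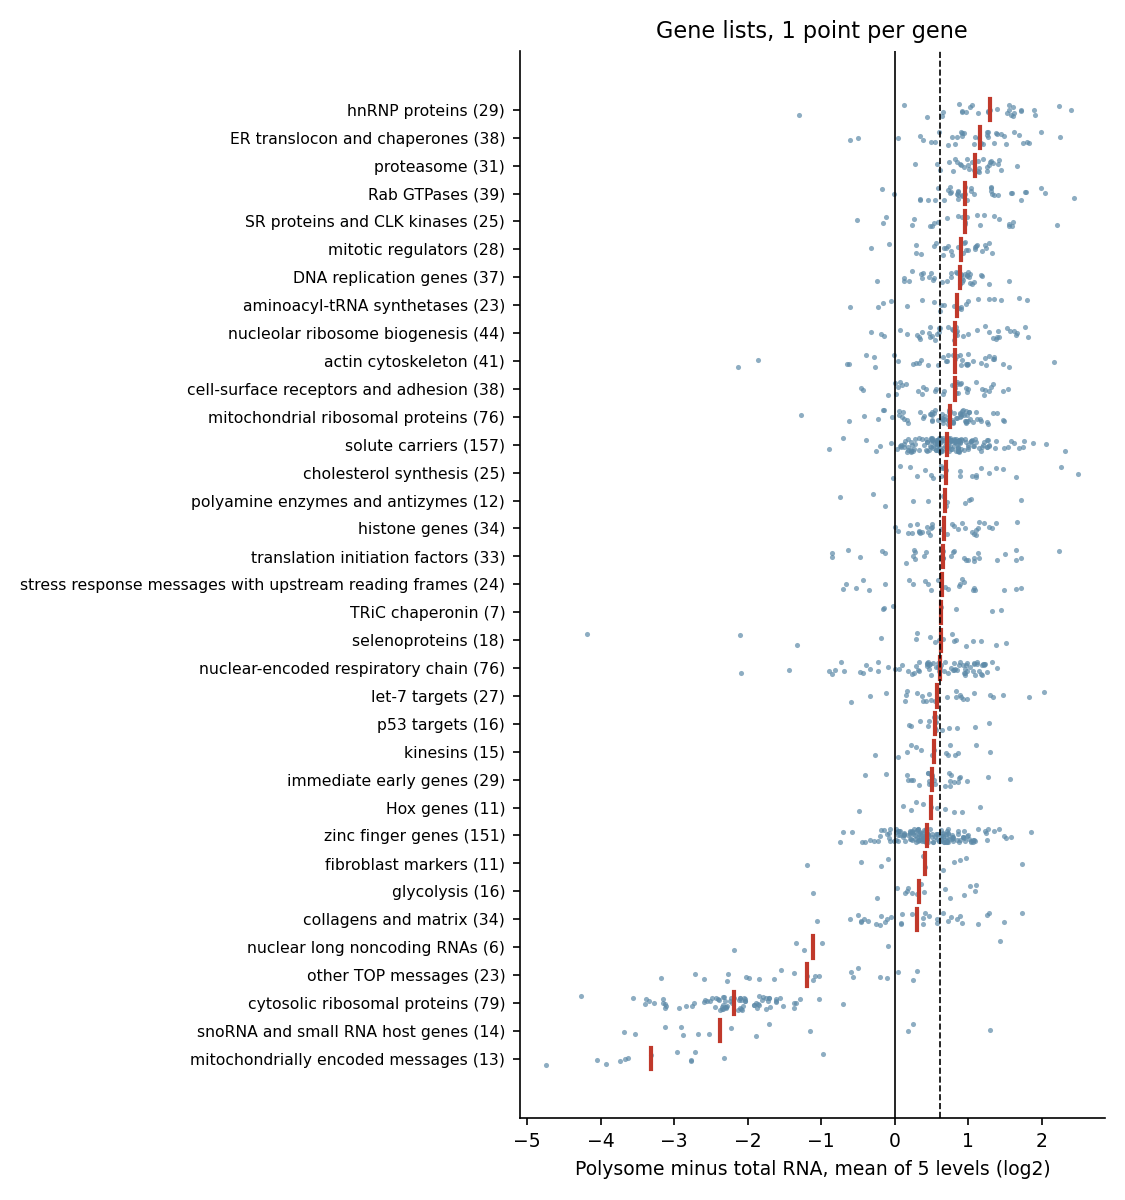
Loading of each measured gene (1 point, log2, mean of 5 levels) in the 35 lists with 5 or more measured members, ordered by the list's median (red bar), with the number measured in brackets. The solid line is 0 and the dashed line the median of all genes at 0.62. Mitochondrial messages, small RNA hosts, ribosomal proteins, other TOP messages and nuclear noncoding RNAs have medians below 0, and every other list has a median above 0, from 0.31 for collagens and matrix, left of the dashed line, to 1.30 for hnRNP proteins.

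Genes of the secretory pathway and of protein turnover were well loaded. Of 38 endoplasmic reticulum translocon and chaperone genes, 35 were higher and 22 well loaded, with a median of 1.17, and 28 were higher and 4 lower relative to the median gene. Spcs3 of the signal peptidase stood at 2.26 ± 0.65, Sec62 at 1.99 ± 0.69 and the chaperone Hspa5 at 1.75 ± 0.63. Hspa5 was read at 13.5 to 23.7 RPKM in total RNA and 23.9 to 98.1 RPKM in polysome RNA, with its lowest loading at X0 (0.77). Sec61g, the small subunit of the translocon, and Ssr4 were the members lower in polysome RNA, at −0.60 ± 0.14 and −0.50 ± 0.26. All 31 proteasome genes were higher (median 1.10) and 20 well loaded, and on the relative scale 26 were higher and 1 lower. Psmd12 stood at 1.66 ± 0.21 and Psmc6 at 1.45 ± 0.66. The lowest, Psmb1, stood at 0.28 ± 0.15, and at −0.33 relative to the median gene, where it was the only proteasome gene called lower.

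Membrane traffic and sterol genes showed the same direction. Of 39 Rab GTPases, 37 were higher and 0 lower, with a median of 0.96, and 26 were higher and 3 lower on the relative scale. Rab5a stood at 2.04 ± 0.83. Of 25 cholesterol synthesis genes, 23 were higher and 0 lower (median 0.70), with Hmgcs1, which makes HMG-CoA, at 2.26 ± 0.65. On the relative scale that list divided, 12 higher and 4 lower. Solute carriers, the largest list, were higher in 133 of 157 cases with a median of 0.72, near that of all genes. Relative to the median gene, 52 of them were higher and 27 lower. The mitochondrial carrier Slc25a24 led at 2.32 ± 0.53.

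Genes of the cell cycle had medians above that of all genes. Of 37 DNA replication genes 33 were higher (median 0.89, and 17 higher and 7 lower on the relative scale), with Pcna, the sliding clamp, at 1.56 ± 0.21. Of 28 mitotic regulators 26 were higher (median 0.90, and 12 higher and 5 lower on the relative scale), with the securin Pttg1 at 1.32 ± 0.058, the smallest spread among genes named here. Nucleolar ribosome biogenesis factors were higher in 37 of 44 cases with a median of 0.82 (16 higher and 7 lower on the relative scale), beside −2.19 for the ribosomal proteins they assemble. Histone rows (34, copies of H3f3a among them) lay with all genes, at 24 higher and 0 lower with a median of 0.67. On the relative scale 12 were higher and 3 lower. The replacement histone gene H3f3b led at 1.66 ± 0.16.

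Within the translation apparatus, families other than TOP messages were mostly higher as measured, as were 6842 of the 8484 coding genes (median 0.69). These families lay on both sides of the median gene. The list of initiation factors also holds the binding proteins Eif4ebp1 and Eif4ebp2, which are not such factors themselves. Its members were higher in 26 of 33 cases and lower in 3, with a median of 0.66. On the relative scale 13 were higher and 12 lower. Eif1a (2.24 ± 0.62) and Eif5 (1.72 ± 0.72) were the highest of this list, and Eif1 (−0.85 ± 0.17) and Eif4ebp2 (−0.85 ± 0.19) the lowest. Initiation factors counted with the TOP messages are not in it, and several of these were poorly loaded: Eif3f stood at −2.27 ± 0.20, Eif3h at −1.54 ± 0.15, Eif4b at −1.36 ± 0.24 and Eif3e at −1.08 ± 0.79. Aminoacyl-tRNA synthetases were higher in 19 of 23 cases (median 0.84, and 11 higher and 5 lower on the relative scale). They ran from Dars at 1.80 ± 0.59 and Nars at 1.70 ± 0.31 to Qars at −0.61 ± 0.20. Of the 7 chaperonin subunits in their list, 4 were higher and 0 lower (3 higher and 3 lower on the relative scale). A further subunit, Cct4, counted with the TOP messages, stood at −0.10 ± 0.32. It did not pass the test, though it did relative to the median gene (−0.71). Cct6a stood at 1.44 ± 0.32, and Cct5 at −0.16 ± 0.16 did not pass the test (adjusted p = 0.064) but did without X1 (−0.23, adjusted p = 0.011).

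Stress messages with upstream reading frames did not move as a group. Of 24, 17 were higher and 5 lower (median 0.64), with 7 higher and 9 lower relative to the median gene. The lower ones included Ddit3, a stress transcription factor, at −0.52 ± 0.21, Atf4 at −0.43 ± 0.35 and Ppp1r15a, a phosphatase subunit, at −0.35 ± 0.36. Atf4 was read at 340 to 370 RPKM in total RNA, and in polysome RNA at 376 RPKM at X0 and 211 to 262 RPKM at X1 to X4, so that its loading was 0.15 at X0 and between −0.71 and −0.39 elsewhere. Ppp1r15a lost its call without X1, X2 or X3 (−0.28 to −0.30, adjusted p = 0.083 to 0.096). Without X2 and X3 together neither Atf4 (−0.37, adjusted p = 0.058) nor Ppp1r15a (−0.21, adjusted p = 0.24) passed the test. The highest were Azin1, the antizyme inhibitor, at 1.72 ± 0.58 and Cdkn1b at 1.66 ± 0.45.

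Polyamine genes lay with all genes. Of 12, 9 were higher and 1 lower as measured, with a median of 0.68, and 4 were higher and 4 lower on the relative scale. The gene lower as measured was the antizyme Oaz1, whose translation needs a ribosomal frameshift, at −0.75 ± 0.29. Odc1, the decarboxylase that antizyme degrades, stood at 0.25 ± 0.25, lost its call without X1, X2 or X3 (0.18 to 0.27, adjusted p = 0.054 to 0.13), and was lower than the median gene (−0.36). The difference between the 2 genes was not tested.

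Matrix and glycolysis genes lay below the median gene. Of 34 collagen and matrix genes 17 were higher and 7 lower (median 0.31), and on the relative scale 8 were higher and 20 lower, so that the direction of the list turns with the scaling. Lox, the collagen crosslinking enzyme, stood at 1.73 ± 0.66 and the proteoglycan Bgn at −1.05 ± 0.29. Fn1, fibronectin, stood at −0.46 ± 0.17. Col1a1 at −0.19 ± 0.25 did not pass the test (adjusted p = 0.094), though it did without X0 (−0.29, adjusted p = 0.0063) and relative to the median gene (−0.80). Of 16 glycolysis genes 11 were higher and 2 lower (median 0.33), and 4 were higher and 9 lower relative to the median gene. Pgam1 (1.11 ± 0.12) and Tpi1 (1.09 ± 0.19) were the highest and Gpi1 (−1.11 ± 0.17) the lowest. Gapdh stood at −0.24 ± 0.20 and lost its call without X2 (−0.21, adjusted p = 0.080) or X3 (−0.19, adjusted p = 0.098).

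Zinc finger genes leaned below the median gene, and immediate early genes lay near it. Zinc finger genes were higher in 105 of 151 cases and lower in 7 (median 0.45), with 17 higher and 49 lower on the relative scale, and ran from Zfp146 at 1.86 ± 0.58 to Zfp524 at −0.74 ± 0.18. Immediate early genes were higher in 24 of 29 cases (median 0.51, and 5 higher and 7 lower on the relative scale), from Klf6 at 1.57 ± 0.53 to Zfp36 at −0.41 ± 0.22. Of 27 conserved let-7 targets 20 were higher and 2 lower (median 0.57, and 8 higher and 6 lower on the relative scale). Hmga1, a chromatin protein, stood at −0.59 ± 0.16. In the remaining lists 29 of 38 genes for cell-surface receptors and adhesion were higher (median 0.82), as were 14 of 16 p53 targets (0.56), 11 of 15 kinesins (0.53) and 6 of 11 Hox genes (0.49). On the relative scale the receptor and adhesion genes were 16 higher and 11 lower, the kinesins 2 higher and 6 lower, the p53 targets 3 higher and 1 lower, and the Hox genes 2 higher and 3 lower.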

How the data were processed

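The deposited table gives RPKM per gene for 10 NIH3T3 libraries, as calculated by the authors. The submitters' processing notes name the tools STAR and cutadapt and the build mm10. How reads were counted, by strand or not, and on which annotation is not stated in what was used here. RPKM steps could be fitted as whole multiples of 1 read in 100% of the 21042 genes above 0 (tolerance 0.02 reads). This gave reads per gene, depth and gene length. A gene above 0 in only 1 library fits by construction, so that share is no check for such genes. Of the 12471 genes with 200 or more reads, 99.98% had a whole length (tolerance 0.05 bases), after 1 shared constant was set to make lengths whole. Reads were used for shares, depth, gene lengths and the read numbers and bound given for single genes, and not for the test.

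Loading was tested with limma 3.58.1 (R 4.3.3) on the 5 paired differences of log2(RPKM + 0.5), with a variance trend on mean level, two-sided, with Benjamini-Hochberg adjustment over all 10952 genes and a threshold of 0.05. The fit was tested on simulated data for 10952 genes, 100 of them changed by 1 log2 unit and 100 by 0.5, up or down. It recovered 97% and 48% of these and made 9 false calls (5.84% of its calls). Most genes passed the test in the real data, so the simulation does not show how the fit behaves there. The 5 duplicated symbols were kept as separate rows.

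The reference tables at hand were human, so genes were classed by case-folded human symbols and no mouse sequence was printed. Planned descriptors of transcript starts and protein length were not used, and gene length recovered from the table, chosen after seeing the data, took their place. The comparison, the 40 gene lists and the rules were chosen with earlier results of these data known. Genes were named by rule: the 10 highest and 10 lowest coding and the 5 highest and 5 lowest other genes that passed the test with 1 sign at all 5 levels and a mean of at least 5 RPKM, the 2 highest and 2 lowest of each list, and a fixed set of well-known genes. Not all of these are printed, and some are not reported here. Alternatives covered the pseudocount, filter, centring, pairing, level trend, variance prior and each level left out. Restriction to human coding symbols and leaving out X2 and X3 together were added after seeing the data.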

Additional observations from a re-analysis of the deposited data

Results flagged for a closer look

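In each of 121 named genes the highest or lowest of the 5 levels was compared with its nearest neighbour by Dixon's ratio, which chance alone passes in about 1 of 20 groups. It singled out 10 genes, 7 of them at X0. At X0 Eef1a1 stood at −3.21, Vim at −1.52, Bgn at −1.57 and Pcbp2 at −1.43, each below its other 4 levels. Also at X0 Fth1 stood at −2.72, Ddit3 at −0.17 and Zfp36 at −0.025, each above its other levels. At X1 Rian stood at −2.81, below the others, and Cct5 at 0.11, above them. At X4 Vimp stood at 1.03, below the others.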

How the results depend on the processing

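Poorly loaded genes numbered 915 to 1378 in every alternative except 2 that test fewer genes: 720 at a mean of at least 5 RPKM and 163 with human coding symbols only. Leaving out 1 level gave 7503 to 7665 higher, 1413 to 1510 lower, 2287 to 2674 well loaded and 937 to 962 poorly loaded genes. Without the replicate block, that is unpaired, 7305 were higher, 1401 lower, 2514 well and 947 poorly loaded. Polysome and total RNA of a level deviated together only in part (correlations of −0.08 to 0.62, and 2 of 5 polysome libraries closest to their own level). Unpaired, Ddit3 (adjusted p = 0.21), Fn1 (0.24) and Gapdh (0.067) lost their calls.

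Centring decided the counts on the higher side. Centred on the median, 3250 genes were higher, 3374 lower and 418 well loaded. Centred on a 30% trimmed mean, 3312 were higher, 3321 lower and 425 well loaded. Odc1 turned to −0.36 and −0.35 and Psmb1 to −0.33 and −0.32. At a mean of at least 5 RPKM, 5198 of fewer tested genes were higher and 1630 well loaded, and with human coding symbols 497 were lower. Pseudocounts of 0.1 and 1 gave 2989 and 2023 well loaded genes. With any gene above 0 tested, Gapdh, Odc1, Ppp1r15a and mt-Nd6 lost their calls, and Odc1 did so with a variance prior without a trend. Without X2 and X3 together, 5 named genes lost their calls, among them Psmb1 (adjusted p = 0.065). With 5 pairs and low read numbers, small differences can be missed.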

Other observations

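Some genes of interest fell below the filter and have values only. Lin28b was read at 0.00889, 0.0336, 0.0385, 0.134 and 0.488 RPKM in polysome RNA at X0 to X4 and at 0.00740, 0.0107, 0.0115, 0.0834 and 0.354 RPKM in total RNA, from 1 to 42 reads a library, and no source used here says whether the transgene matches the mouse gene model. Malat1, a nuclear noncoding RNA, was read at 0.437 to 1.15 RPKM in total RNA and 0.127 to 0.485 RPKM in polysome RNA, with polysome RNA lower at 5 of 5 levels. Tfrc, the transferrin receptor, was read at 0.218 to 0.354 RPKM in total RNA and 0.311 to 1.40 RPKM in polysome RNA. The splicing kinase Clk1 was read at 0.497 to 1.23 RPKM and 0.684 to 1.17 RPKM.

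A pair of rows of 78 bases, Gm10180 and Gm10736, was among the 5 lowest rows outside coding symbols, at −4.51 ± 0.40 and −4.47 ± 0.31, close to Rpl41 at −4.27. Whether they share reads with another gene was not tested.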
